A study of Mus musculus with 19 samples.

Results

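Mouse embryonic stem cell (mESCs) lines of 2 kinds, called groups I and II, were compared across 3 embryos by their poly-A RNA. Embryos of B6CBAF1/J mice were taken apart at the 8-cell stage, each line came from 1 of their blastomeres, and 1 library was sequenced per line. Group I held 11 of the 19 lines, namely 1.1, 1.3 and 1.4 from embryo 1, 2.3 to 2.6 from embryo 2 and 3.4 to 3.7 from embryo 3. Group II held the other 8, namely 1.2 and 1.5, 2.1, 2.2 and 2.7, and 3.1 to 3.3. The labels give no engineered allele, and all 19 lines had the same treatment. They grew on HFF-1 human foreskin fibroblasts, kept from dividing by mitomycin C, in medium with serum replacement, leukemia inhibitory factor (LIF), the MEK inhibitor PD0325901 and the TGFβ inhibitor SB431542, and the feeder cells were removed before RNA extraction. Sister lines share an embryo, so each embryo is a block in what follows, and a line is 1 culture with no repeat library. Any range or standard deviation (SD) given below is over lines.

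The groups were not treatments. The study drew them from these same libraries, by a principal component analysis after removal of the differences between embryos, and line 2.2 joined group II through a network of correlated genes. The difference between the groups in any gene of these libraries is therefore a description of how the lines had been sorted, and no test is attached to it. A gene is called higher or lower in group I below when a fit over all lines with embryo as a block gave a fold change over 1.5 at an adjusted p under 0.05 (edgeR's quasi-likelihood method), which serves here only as a filter for differences that are large beside the spread among sister lines. Log2 fold changes are group I over group II, with the standard error (SE) derived from that fit. The SE takes the groups as given, so it leaves out that the lines were sorted on the same libraries. Levels are CPM, that is counts relative to the library total scaled by TMM factors.

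mESCs in LIF keep the pluripotency of the early epiblast, and they can shift between a naive state, marked by factors such as Klf4, Tfcp2l1 and Esrrb, and a primed state on the way to differentiation, marked by factors such as Otx2 and Pou3f1. Their energy use shifts along the same path, between respiration and glycolysis. HIF-1, the transcription factor that is stabilised when oxygen is low, binds short sites in the control regions of genes for glycolysis, angiogenesis and mitophagy, while ATF4 answers a lack of amino acids and SREBP-2 a lack of sterols.

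The total count per line was 36555470 to 48740941 in group I and 33846569 to 46092184 in group II, with medians of 40769908 and 43409629. Protein coding genes took 95.2% to 96.8% of the counts in group I and 94.9% to 96.8% in group II. The library names of lines 1.5 and 2.4 stood outside the run of the others. In 5 lines the genes of 1 chromosome were shifted as a whole against the sister lines. The median shift in log2 CPM was 0.43 for chromosome 8 in line 2.2, 0.33 for chromosome 8 in line 3.1, 0.35 for chromosome 13 in line 3.2, -0.39 for chromosome 6 in line 3.7 and -0.39 for chromosome 14 in line 3.6. The limit was 0.2, and smaller shifts stayed under it. Chromosome 6 was at 0.16 in line 3.4, -0.16 in line 3.5 and -0.14 in line 1.4. Chromosome 8 was at 0.14 in line 2.1 and 0.12 in line 1.2, and chromosome 1 at 0.15 in line 2.6. Lines 2.2, 3.1 and 3.2, with the raised chromosomes, belong to group II, and lines 3.6 and 3.7, with the lowered ones, to group I. Where the count of a gene list changes without these lines, that count is given beside it. As a check of the labelled cell type, the 8 core pluripotency genes summed to 3132 to 4390 CPM in group I and 2860 to 3711 CPM in group II, so they were expressed at a high level in every line.

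Of 21885 protein coding genes in the table, 15213 had enough counts to be compared and 2623 were at 0 in every line. In group I 432 genes (2.84% of the genes compared) were higher and 1117 (7.34%) were lower, and these shares are the background for the gene groups below. Of these 1549 genes, 1393 kept 1 sign of the difference over all 3 embryos. The differences were moderate, with a median log2 fold change of 0.88 among the higher and -0.87 among the lower genes. Only 27 higher and 77 lower genes differed over 3-fold, and 6 and 21 over 4-fold. Most were expressed at a low level, since their mean level had a median of 1.82 CPM among the higher and 3.22 CPM among the lower genes, against 17.5 CPM over all protein coding genes compared. Within embryos 1, 2 and 3, the median log2 fold change was 0.90, 0.79 and 1.00 among the higher genes and -1.01, -0.66 and -0.97 among the lower genes, so that embryo 2 had the smallest difference on both sides.

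A stricter view asks whether the lines of a group stand apart from all their sister lines. In 218 genes (1.43%) the lowest group I line lay above the highest group II line in each of the 3 embryos, and in 346 genes (2.27%) every group I line lay below, whatever the size of the difference. Among the genes called higher 45 were separated in this way, and among those called lower 212. The counts were 88 higher and 512 lower without the 5 lines with a shifted chromosome, with 580 of these 600 shared with the full set, and 0 with a fibroblast score as a covariate, that is the mean log2 CPM of 5 fibroblast genes (Dcn, Lum, Col3a1, Col1a2 and Col1a1). With that covariate 1792 genes were at an unadjusted p under 0.05 by edgeR, and 1519 of the 1549 genes kept their sign. The median size of log2 fold change of the 1549 genes was 0.61 with it, against 0.88 in the main fit. Since 0 genes were called with the covariate, 0 called members in a list below adds nothing about that list. Of the genes named below by rule, 10 were no longer called without at least 1 single line, namely Bmp4, Cish, Dab2, Dcx, Gata6, H2-K1, Klf4, Lefty1, Pdgfra and Peg3, and 30 without the 5 lines with a shifted chromosome. The 30 were all of these but H2-K1 and Klf4, together with Adm, Cp, Emp1, Gdf15, Grem1, H2-T23, Herpud1, Ier3, Inhba, Inhbb, Krt19, Lef1, Ndnf, Nkd2, Nlrp3, Nupr1, Plat, Prrx1, Slc30a1, Sycp1, Twist2 and Zic1. A call can also be lost through fewer lines. Of the 1549 genes, 1538 were compared without the 5 lines, and all kept their sign. Their median size of log2 fold change was 0.82 against 0.87. Among the 30, Inhbb had 1.85 against 1.79 and Ndnf -1.84 against -1.69, while others shrank, as Adm with -1.62 against -2.20. The parts of the shifted chromosomes and of the fewer lines were not tested.

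The lines did not split into 2 tight sets (plot of line positions). On the mean log2 CPM of the genes called higher, taken from the midpoint of the group means in each embryo, the group I lines lay from 0.05 (line 3.4) to 0.76 (line 3.5) and the group II lines from -0.82 (line 1.5) to -0.10 (line 1.2). On the genes called lower they lay from -0.64 (line 3.7) to -0.17 (line 2.3) and from 0.12 (line 2.7) to 0.86 (line 1.5). Nearest to the border were line 3.4 of group I and lines 1.2 and 2.7 of group II on the higher genes, and lines 2.3 and 2.4 of group I and line 2.7 of group II on the lower genes. Line 1.5 was the most extreme line of group II on both scales. The genes were chosen by the groups, so the absence of overlap here is set by the choice.

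**Figure D1:**
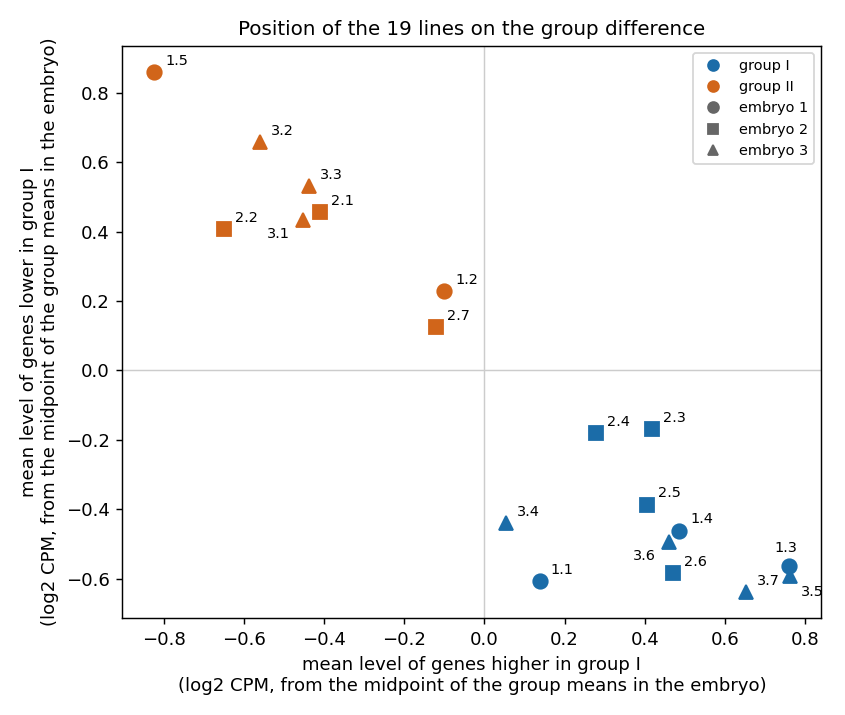
Each point is 1 line. The x axis gives the mean log2 CPM of the 432 genes called higher in group I and the y axis that of the 1117 genes called lower, both as the difference from the midpoint of the group means in the embryo. Colour marks the group and shape the embryo. Line 1.5 lies farthest out, at -0.82 and 0.86, and lines 1.2 and 2.7 lie closest to group I.

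Genes that answer low oxygen were the most evident set among those lower in group I. Of 27 HIF-1 targets outside glycolysis, 20 were lower, 0 were higher and the median log2 fold change was -1.21, where the median over all protein coding genes was -0.03. Without the 5 lines with a shifted chromosome 16 were lower. When the fibroblast score was a covariate 0 were called, as over all genes, and the median was -0.57. Their summed level was 896 to 2194 CPM in group I, with a median of 1134 CPM, and 1832 to 3436 CPM in group II, with a median of 2221 CPM. Ndufa4l2, which lowers the activity of complex I of the respiratory chain in hypoxia, had the largest difference among the genes of 5 CPM or more whose sign held in every embryo. In group I it stood at 16.5, 4.01 and 18.5 CPM in lines 1.1, 1.3 and 1.4, at 2.98, 4.67, 3.54 and 2.65 CPM in lines 2.3 to 2.6, and at 4.69, 0.368, 0.700 and 2.23 CPM in lines 3.4 to 3.7. In group II it stood at 24.3 and 63.8 CPM in lines 1.2 and 1.5, at 37.4, 31.3 and 12.4 CPM in lines 2.1, 2.2 and 2.7, and at 14.2, 24.3 and 17.0 CPM in lines 3.1 to 3.3. The groups did not overlap within any embryo, but lines 1.1 and 1.4 were higher than lines 2.7 and 3.1 of the other group, and the log2 fold change was -2.75 (SE 0.38).

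Bnip3, a receptor that sends mitochondria to autophagy, stood at 9.23 to 161 CPM in group I (median 58.5) and 126 to 324 CPM in group II (median 174), a log2 fold change of -1.89 (SE 0.30). Its closest pair were line 1.1 at 161 CPM and line 1.2 at 164 CPM, sister lines of different groups. Egln3, a prolyl hydroxylase that marks HIF-1 alpha for destruction and is itself a HIF-1 target, stood at 3.39 to 136 CPM in group I (median 13.4) and 23.3 to 181 CPM in group II (median 67.9). Here embryo 1 overlapped, with line 1.4 of group I at 136 CPM and line 1.2 of group II at 71.3 CPM. The log2 fold changes for embryos 1, 2 and 3 were -0.54, -2.78 and -2.04. Adm, which encodes the vasodilator peptide adrenomedullin, followed the same order with -0.62, -3.11 and -2.31, as did Bhlhe40, a transcriptional repressor, with -0.32, -2.47 and -2.01. In these genes the lines of embryo 1 thus lay closer together than those of the other embryos.

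Among the enzymes of the matrix, Loxl2, which crosslinks collagen, stood at 10.0 to 34.2 CPM in group I (median 19.8) and 47.2 to 144 CPM in group II (median 56.9), so that no line of one group reached the other in the whole set of 19. The prolyl hydroxylase gene P4ha1, for the maturation of collagen, had a mean of 26.1 CPM in group I against 73.8 CPM in group II, and Plod2, a lysyl hydroxylase, 71.6 and 146 CPM. Ddit4, an inhibitor of mTORC1, stood at 38.2 to 170 CPM in group I (median 63.7) and 149 to 409 CPM in group II (median 192), with an overlap in embryo 1 through lines 1.4 and 1.2. Vegfa, the angiogenic growth factor, had a log2 fold change of -1.21 (SE 0.19), and Egln1, the main oxygen sensor of the pathway, one of -1.02 (SE 0.15). The members not called were Gys1, Bnip3l, Hilpda, Kdm3a, Mxi1, Pfkfb4 and Slc6a8, with log2 fold changes from -0.58 to 0.41.

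**Figure D2:**
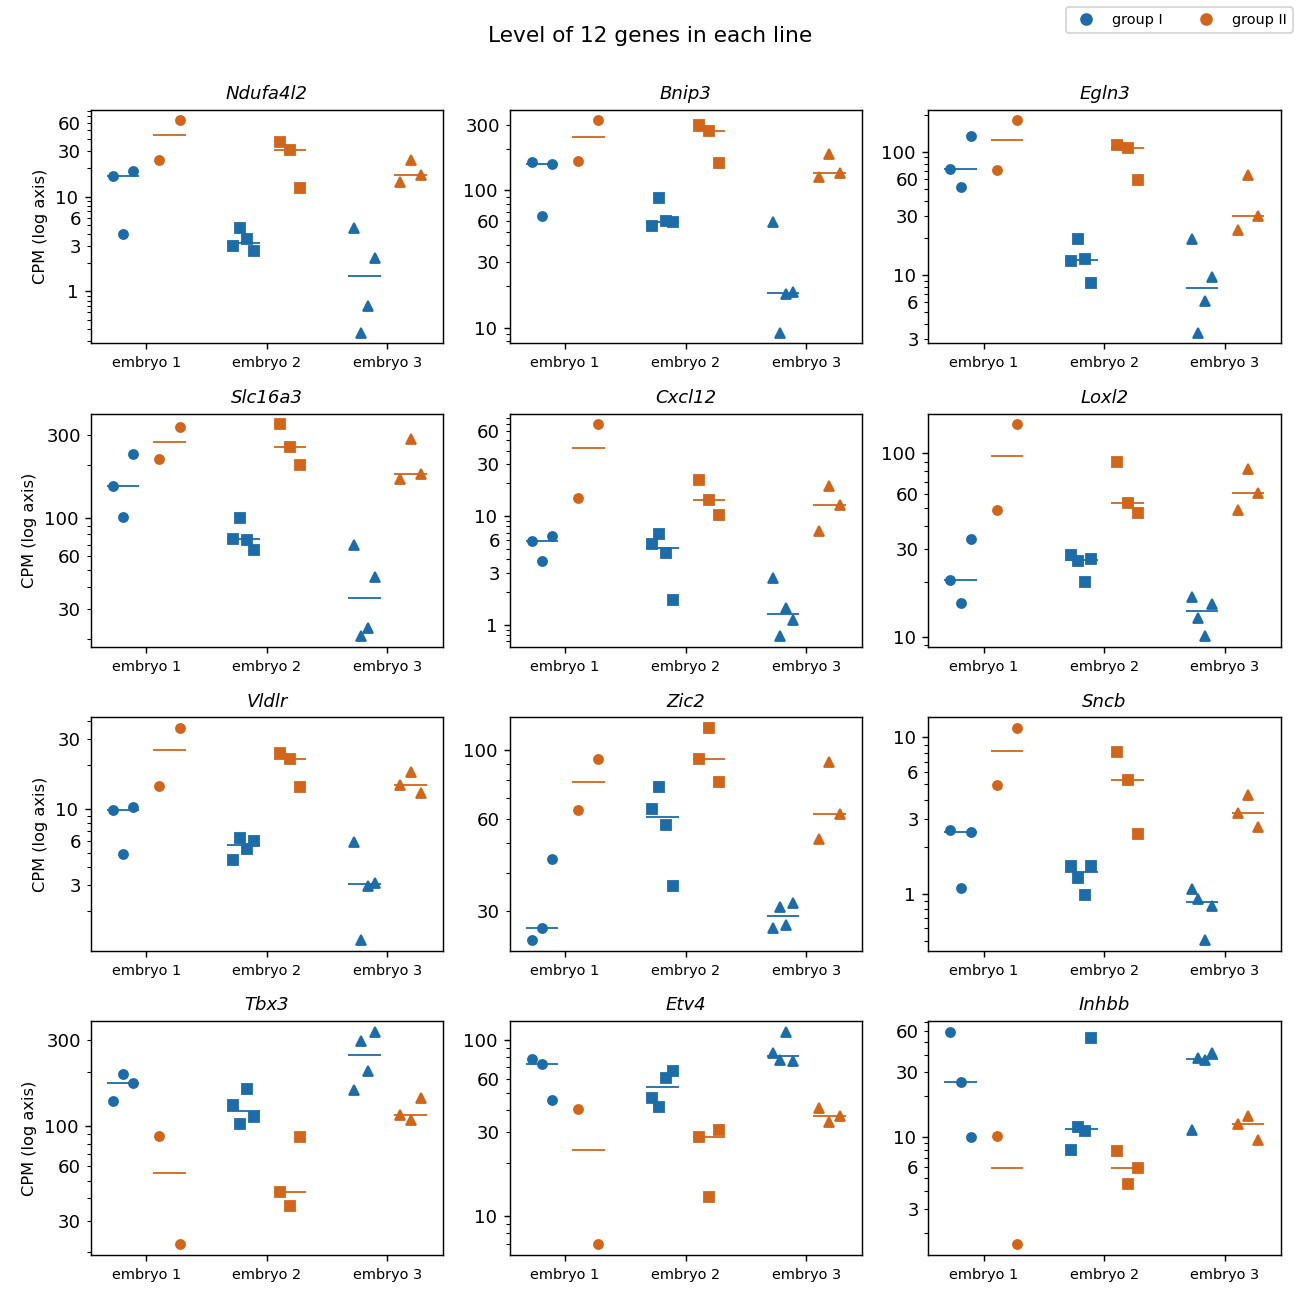
Each panel gives the level of 1 gene in CPM on a log axis, with 1 point per line and a bar at the median of the lines of a group in an embryo. The median of group I lies below that of group II in each embryo in the panels from Ndufa4l2 to Sncb and above it in Tbx3, Etv4 and Inhbb. The lines of the groups overlap in embryo 1 for Egln3, Slc16a3 and Inhbb and in embryo 3 for Inhbb, and they come close for Bnip3 in embryo 1 (161 and 164 CPM).

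Glycolysis showed a smaller difference that reached most of its steps. Of 22 gene models for glycolysis and glucose uptake, 14 were lower in group I, 0 were higher and all 22 had a negative log2 fold change, with a median of -0.75. Without the 5 lines with a shifted chromosome 11 were lower. When the fibroblast score was a covariate 0 were called, as over all genes, and the median was -0.37. Their summed level was 9965 to 21248 CPM in group I and 18741 to 29426 CPM in group II. Slc16a3, which exports lactate, stood at 20.7 to 232 CPM in group I (median 74.2) and 167 to 345 CPM in group II (median 237), a log2 fold change of -1.77 (SE 0.25). In embryo 1 line 1.4 of group I, at 232 CPM, was above line 1.2 of group II, at 218 CPM. Abundant enzymes differed less in fold and more in CPM. Pgk1, which makes the first ATP of the pathway, had a mean of 499 ± 196 CPM in group I (SD, n = 11) and 1118 ± 263 CPM in group II (SD, n = 8), and Ldha, which turns pyruvate to lactate, 785 ± 271 and 1575 ± 229 CPM.

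Of these gene models, 8 were separated in each embryo, namely Pgk1, Pfkl, Ldha, Gpi1, Tpi1, Aldoa, Eno1 and Pkm, the last of which had a fold change under 1.5. Over all genes compared 2.27% were separated with group I lower. Pfkp and Pfkl, isoforms of the enzyme at the committed step, had log2 fold changes of -1.30 (SE 0.19) and -1.20 (SE 0.16), while the third isoform, Pfkm, had one of -0.02 (SE 0.09). Eno2, the neuronal enolase, differed mostly in embryo 2, with log2 fold changes of -0.64, -3.25 and -0.68 in embryos 1, 2 and 3. Slc2a1, a glucose transporter, had a mean of 492 ± 161 CPM in group I (SD, n = 11) and 806 ± 153 CPM in group II (SD, n = 8). Gapdh, often taken as a reference gene, had a mean of 2820 CPM in group I against 3138 CPM in group II and was not called (log2 fold change -0.16, SE 0.09). Aldoa is annotated as 2 gene models, and the other one, at under 1 CPM, was not called.

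The promoters of these genes were read for the letters ACGTG, the core to which HIF-1 binds, on both strands from 250 bases before to 50 bases after the annotated start (GRCm39 sequence, GENCODE vM39 starts). The core was found in 17 of 27 HIF-1 targets outside glycolysis (63.0%) and in 14 of the 20 called lower (70.0%). It was found in 9 of 22 glycolysis promoters (40.9%), and in 3739 of 15173 promoters of all protein coding genes compared (24.6%). Over all genes called lower the share was 21.4%, and over those called higher 24.8%. The HIF-1 list was written from known targets, so its share describes the list and not the group difference. The promoters of Bnip3 and Egln3 are shown as the 2 members of the hypoxia set with the largest differences that hold the core, with the matches in capitals. In Bnip3 (chr7:138511204-138511503, minus strand) the matches on the 2 strands begin 90 and 89 bases before the start and overlap in the palindrome CACGTG, which is also an E-box. In Egln3 (chr12:54250624-54250923, minus strand) the match begins 216 bases before the start. Ndufa4l2, Adm, Slc16a3, Eno2 and Aldoc have no such letters in this window.
Bnip3: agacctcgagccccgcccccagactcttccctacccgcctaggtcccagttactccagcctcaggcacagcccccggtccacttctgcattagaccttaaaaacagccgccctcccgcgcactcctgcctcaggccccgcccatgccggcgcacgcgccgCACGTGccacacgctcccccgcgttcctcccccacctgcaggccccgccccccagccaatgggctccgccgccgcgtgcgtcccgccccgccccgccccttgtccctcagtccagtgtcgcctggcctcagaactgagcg
Egln3: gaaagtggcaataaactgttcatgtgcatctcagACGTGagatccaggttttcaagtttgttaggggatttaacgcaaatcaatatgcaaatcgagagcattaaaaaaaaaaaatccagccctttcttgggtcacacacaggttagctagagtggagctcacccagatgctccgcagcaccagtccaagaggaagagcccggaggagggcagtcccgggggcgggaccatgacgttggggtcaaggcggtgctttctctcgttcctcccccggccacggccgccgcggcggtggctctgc

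Part of the response to amino acid shortage was also lower in group I. Of 28 ATF4 targets, 10 were lower, 0 were higher and 27 had a negative log2 fold change, with a median of -0.50. The median was -0.07, -0.62 and -0.52 in embryos 1, 2 and 3, so the list hardly differed in embryo 1. Vldlr, a lipoprotein receptor, stood at 1.25 to 10.3 CPM in group I (median 5.35) and 13.0 to 35.9 CPM in group II (median 16.2), and no line of one group reached the other. Chac1, which degrades glutathione, stood at 4.58 to 20.8 CPM in group I (median 11.9) and 19.0 to 47.1 CPM in group II (median 32.7), a log2 fold change of -1.31 (SE 0.25). Its values in embryo 1 overlapped, with 19.3 CPM in line 1.1 and 19.4 and 19.0 CPM in lines 1.2 and 1.5. Pycr1, of proline synthesis, Gpt2, which makes alanine, and Mthfd2, of mitochondrial folate metabolism, had log2 fold changes of -1.14 (SE 0.19), -1.05 (SE 0.13) and -0.67 (SE 0.15). Atf4 itself stood at 320 CPM in group I against 392 CPM in group II and was not called (log2 fold change -0.29, SE 0.10), and Asns and Psat1, classic targets for asparagine and serine synthesis, had -0.40 (SE 0.10) and -0.50 (SE 0.15). Of 20 aminoacyl-tRNA synthetases, many of them ATF4 targets too, 0 were called (median -0.05). Without the 5 lines with a shifted chromosome, 4 of the 28 were lower (median -0.39). When the fibroblast score was a covariate 0 were, as over all genes (median -0.24).

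The letters TGATGNAA, the composite site of ATF4 with a C/EBP factor, were found on either strand in 8 of 28 promoters of the ATF4 list (28.6%), in 6 of the 10 called lower and in 2.42% of all promoters. They were also found in 5 of 20 synthetase promoters (25%), where 0 genes were called. Over all genes called lower the share was 3.94%, and over those called higher 2.78%. This list too was written from known targets, so its share describes the list and not the group difference. Chac1 and Vldlr are shown because they had the largest differences among the members of at least 1 CPM with a match. In Chac1 (chr2:119181439-119181738, plus strand) the match, on the opposite strand, begins 159 bases before the start, and in Vldlr (chr19:27194162-27194461, plus strand), also on the opposite strand, 192 bases before it. Nupr1 has no match in this window.
Chac1: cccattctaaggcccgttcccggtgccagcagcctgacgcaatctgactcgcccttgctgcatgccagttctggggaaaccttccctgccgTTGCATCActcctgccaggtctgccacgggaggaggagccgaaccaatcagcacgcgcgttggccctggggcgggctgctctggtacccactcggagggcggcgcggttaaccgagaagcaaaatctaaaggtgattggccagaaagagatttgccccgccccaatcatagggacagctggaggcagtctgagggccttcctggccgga
Vldlr: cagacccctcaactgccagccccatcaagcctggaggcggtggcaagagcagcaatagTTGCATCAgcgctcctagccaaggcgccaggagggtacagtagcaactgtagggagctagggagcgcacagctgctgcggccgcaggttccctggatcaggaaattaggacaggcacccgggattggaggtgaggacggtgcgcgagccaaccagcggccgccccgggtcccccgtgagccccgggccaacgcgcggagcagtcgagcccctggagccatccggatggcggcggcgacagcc

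Sterol synthesis followed with a smaller difference in 22 of 24 genes. Of these, 7 were lower in group I and 0 higher, with a median log2 fold change of -0.36. Msmo1 and Dhcr7, of the later steps of cholesterol synthesis, stood at 60.1 to 116 CPM (median 74.8) and 29.9 to 73.7 CPM (median 37.6) in group I, and at 86.9 to 184 CPM (median 163) and 47.1 to 109 CPM (median 69.3) in group II. None of the 24 was separated in every embryo, where the share separated with group I lower was 2.27% over all genes compared. The letters TCACNCCAC, read as a sterol element, were found in 1 of the 24 promoters, in 0 of the 7 called lower and in 1.36% of all promoters. The desaturases Scd1 and Scd2 were the 2 of 15 fatty acid synthesis genes called lower, and Scd2 stood at 203 to 356 CPM in group I and 361 to 597 CPM in group II, with no overlap. Without the 5 lines with a shifted chromosome, 4 sterol genes were lower (median -0.30).

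Respiration, translation and the cell cycle showed little of this. Of 66 nuclear genes of the respiratory chain 0 were called (median log2 fold change 0.09), of 13 mitochondrially encoded proteins 0 (median 0.21), of 15 TCA cycle genes 0 (median 0.08), of 78 cytoplasmic ribosomal proteins 0 (median 0.05) and of 28 cell cycle genes 0 (median 0.02). The mitochondrially encoded genes differed in embryo 1 (median 0.76) and hardly in embryos 2 and 3 (-0.02 and 0.09), with line 1.5 the lowest, at a mean of -0.82 from the midpoint of its embryo. Of 27 lysosome and autophagy genes 0 were called although 24 had a negative log2 fold change (median -0.20). Cytosolic heat shock proteins had 0 of 12 called, chaperones of the endoplasmic reticulum 1 of 17, namely Herpud1 (log2 fold change -0.84, SE 0.19), and Trp53 targets 1 of 19, namely Gdf15 (-0.89, SE 0.26). The 1 lower member in each of the last 2 lists is near the share of 7.34% over all genes compared. Herpud1 and Gdf15 are on chromosome 8, raised in lines 2.2 and 3.1 of group II. Neither was called without the 5 lines with a shifted chromosome (-0.60 and -0.61). The other lists of this paragraph had 0 called members without these lines as well.

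**Figure D3:**
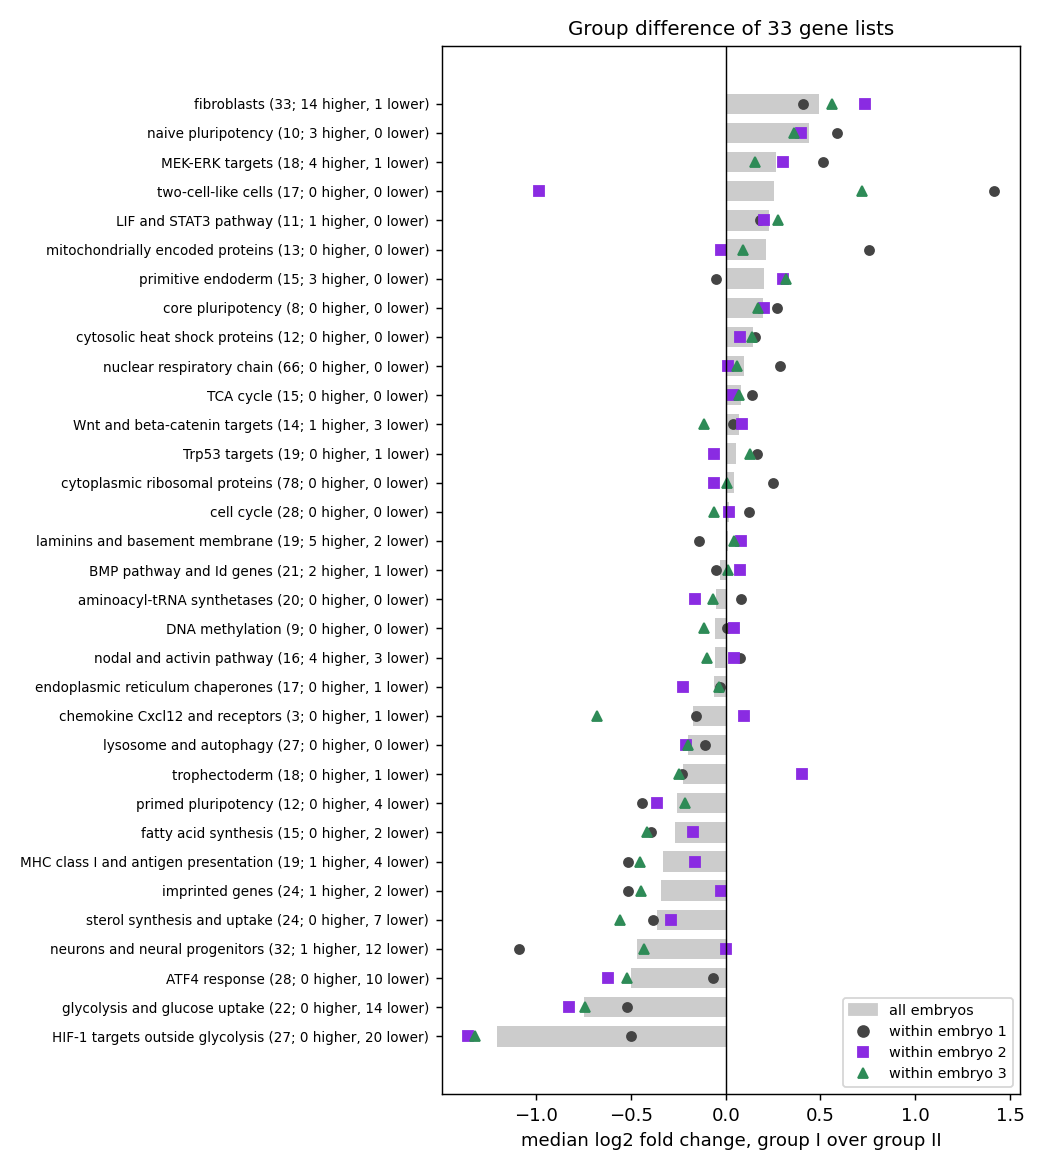
The bars give the median log2 fold change of the compared members of each of 33 gene lists, group I over group II, and the points the median within each embryo. The number of members compared and the numbers called higher and lower stand beside each name. The HIF-1 and glycolysis lists lie lowest, at -1.21 and -0.75, and the fibroblast and naive lists highest, at 0.49 and 0.44.

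Core pluripotency factors were close in level. The log2 fold change was positive in 8 of 10 naive genes and negative in 9 of 12 primed genes, and few of either were called. Pou5f1 stood at 768 to 1138 CPM in group I and 551 to 867 CPM in group II, with a log2 fold change of 0.21 (SE 0.08), and Sox2 at 320 to 425 and 323 to 383 CPM. Nanog, which holds the naive state, stood at 374 to 610 CPM in group I (median 518) and 221 to 434 CPM in group II (median 382). Its log2 fold change was 0.47 (SE 0.11), under the fold threshold, and was 0.92, 0.27 and 0.37 in embryos 1, 2 and 3. None of the 8 core genes was called, and Tdgf1 and Fgf4 had log2 fold changes of -0.09 (SE 0.11) and -0.11 (SE 0.10).

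Of 10 naive genes 3 were higher in group I and 0 lower, with a median log2 fold change of 0.44, and the same 3 to 0 without the 5 lines with a shifted chromosome. With the fibroblast score as a covariate 0 were called, as over all genes, and the median was 0.21. Tbx3, a T-box factor of the naive network, stood at 138, 195 and 173 CPM in lines 1.1, 1.3 and 1.4, at 131, 103, 161 and 113 CPM in lines 2.3 to 2.6, and at 159, 295, 201 and 333 CPM in lines 3.4 to 3.7. In group II it stood at 87.9 and 22.2 CPM in lines 1.2 and 1.5, at 43.0, 36.1 and 86.9 CPM in lines 2.1, 2.2 and 2.7, and at 115, 108 and 144 CPM in lines 3.1 to 3.3. The groups were separated in each embryo, at a log2 fold change of 1.23 (SE 0.22), while the 3 group II lines of embryo 3 reached the level of group I lines of embryo 2. Klf4, a Kruppel-like factor, was also separated, at 163 to 323 CPM in group I (median 234) and 77.1 to 177 CPM in group II (median 148), and its log2 fold change of 0.67 (SE 0.12) was 0.57, under the fold threshold, without line 1.5. Tfcp2l1, a target of LIF and STAT3, had a log2 fold change of 0.85 (SE 0.14), with line 3.4 of group I at 164 CPM below lines 3.1 and 3.3 of group II at 190 and 185 CPM. Esrrb and Klf5 were separated without reaching the fold threshold (0.43, SE 0.10 and 0.44, SE 0.10), and Klf2, Dppa3, Zfp42, Fbxo15 and Nr0b1 lay between -0.17 and 0.57 and were not called.

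Of 12 primed genes 4 were lower in group I and 0 higher, with a median log2 fold change of -0.26 (3 lower without the 5 lines with a shifted chromosome). With the fibroblast score as a covariate 0 were called, as over all genes, and the median was -0.08. Zic2, a zinc finger factor of the primed epiblast, stood at 24.1 to 75.9 CPM in group I (median 32.0) and 51.6 to 118 CPM in group II (median 85.2), with the groups separated in each embryo and a log2 fold change of -1.07 (SE 0.15). Otx2, which drives the exit from the naive state, stood at 36.6 to 92.5 CPM in group I (median 59.6) and 68.2 to 178 CPM in group II (median 92.7), with line 1.4 of group I at 92.5 CPM above line 1.2 of group II at 91.4 CPM, and line 3.4 of group I at 92.4 CPM above line 3.1 of group II at 82.5 CPM. Lef1, a partner of beta-catenin, and Pou3f1 had log2 fold changes of -1.07 (SE 0.23) and -0.90 (SE 0.24). Fgf5, the usual primed marker, was at 0.603 to 2.50 CPM in group I and 0.931 to 8.99 CPM in group II and was not called (-0.69, SE 0.38). Dnmt3b, Eomes, Foxa2 and Dnmt3l were not called either (-0.26, -0.25, -0.15 and -0.13). Nodal, T and Sox17 went the other way without being called (0.57, SE 0.23, 1.00, SE 0.48 and 0.05, SE 0.25). Markers of later germ layers in the list were near the limit of detection, with T at most at 0.656 CPM and Foxa2 at most at 0.509 CPM in any line.

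Some targets of the MEK-ERK pathway were higher in group I, in medium that held a MEK inhibitor for all lines. Of 18 such genes 4 were higher and 1 lower (median log2 fold change 0.26), and 3 and 0 without the 5 lines with a shifted chromosome. Etv4, an ETS factor, stood at 41.5 to 111 CPM in group I (median 72.7) and 6.95 to 41.1 CPM in group II (median 32.5), with a log2 fold change of 1.26 (SE 0.23) and no overlap within an embryo. Its paralog Etv5 had a mean of 375 CPM in group I against 372 CPM in group II (log2 fold change 0.00, SE 0.06). Spry4, a feedback inhibitor of receptor tyrosine kinases, stood at 33.4 to 85.8 CPM in group I (median 62.4) and 14.4 to 48.1 CPM in group II (median 25.2), and Myc, a driver of growth, at 8.96 to 51.6 CPM in group I (median 26.3) with a median of 11.5 CPM in group II. The immediate early genes Egr1 and Fos, with log2 fold changes of 0.42 (SE 0.28) and -0.24 (SE 0.28), were not called. Of 11 genes of the LIF and STAT3 pathway 1 was higher, Cish, an inhibitor of cytokine signaling (0.60, SE 0.21), just over the fold threshold and not called without any one of 13 lines or without the 5 shifted lines, and Lifr, the LIF receptor, was separated at a log2 fold change of 0.44 (SE 0.08).

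Ligands and modulators of TGFβ signaling, which the medium also inhibited, went both ways. Inhbb, the subunit of activin B, had the largest log2 fold change of the higher genes of 5 CPM or more whose sign held in every embryo, at 1.79 (SE 0.42). It stood at 59.1, 25.5 and 10.0 CPM in lines 1.1, 1.3 and 1.4, at 8.03, 11.9, 11.1 and 52.9 CPM in lines 2.3 to 2.6 and at 11.3, 38.3, 36.8 and 41.6 CPM in lines 3.4 to 3.7. In group II it was between 1.64 CPM in line 1.5 and 14.4 CPM in line 3.2. The group I lines ran from the level of group II to several times that level, and in embryos 1 and 3 lines 1.4 and 3.4 fell within the range of their group II sisters. The other activin subunit Inhba and the activin inhibitor Fst were higher too, with log2 fold changes of 0.90 (SE 0.24) and 0.63 (SE 0.20). Lefty1, an inhibitor of nodal, and Skil, a repressor of SMAD, were lower, with -1.22 (SE 0.40) and -1.04 (SE 0.14), and Skil was separated. The call of Lefty1 was lost without any one of 8 lines. That of Inhbb was lost without the 5 lines with a shifted chromosome, though its log2 fold change was 1.85 then. In all 4 of 16 nodal and activin genes were higher and 3 lower (0 and 1 without the 5 lines with a shifted chromosome). Of 21 BMP genes Bmp4 and its antagonist Grem1 were higher (0.73, SE 0.25 and 0.70, SE 0.16) and Bmp7 was lower (-0.85, SE 0.13), where Bmp4 was not called without any one of 7 lines, and neither it nor Grem1 without the 5 shifted lines (0 higher and 1 lower). Of 14 Wnt targets 1 was higher, the inhibitor Dkk1 (0.84, SE 0.28), and 3 were lower, namely the inhibitors Nkd1 and Nkd2 (-0.87, SE 0.18 and -0.96, SE 0.22) and Rnf43 (-1.02, SE 0.32), and without the 5 shifted lines 0 and 1.

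Genes of neurons and neural progenitors included more lower than higher members. Of 32 such genes 12 were lower and 1 higher (7 lower without line 1.5 and 5 lower and 0 higher without the 5 lines with a shifted chromosome), and the median log2 fold change was -1.09, 0.00 and -0.43 in embryos 1, 2 and 3. Sncb, a synuclein, stood at 0.503 to 2.56 CPM in group I (median 1.09) and 2.41 to 11.5 CPM in group II (median 4.61), with the groups separated and log2 fold changes of -2.01 and -2.02 in embryos 1 and 3. Nes, the intermediate filament of neural progenitors, was separated too, at a mean of 28.9 CPM in group I against 56.4 CPM in group II. By contrast Dcx, a microtubule protein of migrating neurons, had -2.70, 0.10 and -3.14, and Zic1 had -2.11, -0.06 and -2.72. The call of Dcx was lost without any one of 14 lines. The member called higher was Olig2 (0.67, SE 0.18). Tubb3 and Stmn2, which encode proteins of neuronal microtubules, were not called (0.19, SE 0.18 and 0.09, SE 0.19). Kif1a, a motor protein of synaptic vesicles outside the list, had a log2 fold change of -2.05 (SE 0.29), at 1.82 to 14.5 CPM in group I and 7.63 to 75.7 CPM in group II (median 16.6). It was highest in line 1.5, and while the groups did not overlap within any embryo, lines 1.2 and 3.1 to 3.3 of group II lay inside the range of group I.

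**Figure D4:**
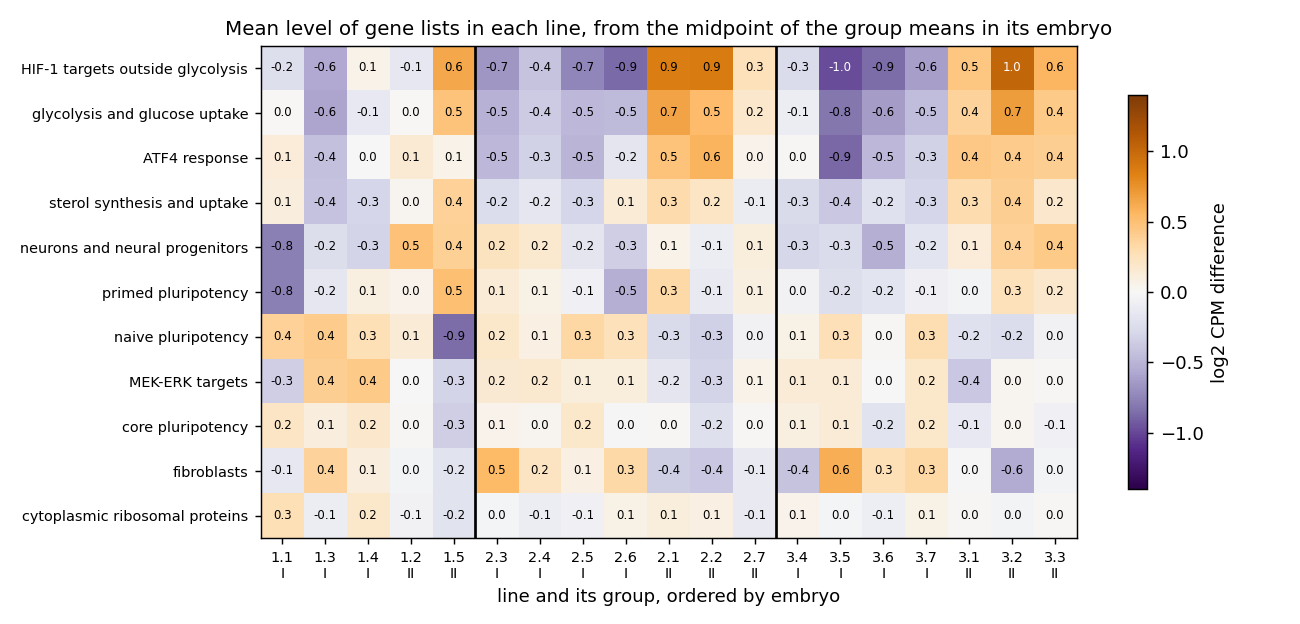
Each cell gives the mean log2 CPM of a gene list in 1 line as the difference from the midpoint of the group means in its embryo, with lines ordered by embryo and group and the scale at the right. In embryos 2 and 3 the group II lines are above the group I lines for the HIF-1 and glycolysis lists, while in embryo 1 line 1.4 (0.06) is above line 1.2 (-0.14) for HIF-1. For the neural list, lines 2.3 and 2.4 of group I (0.24 and 0.17) are above the 3 group II lines of embryo 2.

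The lists also differed in which lines stood apart. For the HIF-1 list, group I lay between -0.87 and -0.41 in embryo 2 and between -0.98 and -0.26 in embryo 3, and group II between 0.26 and 0.88 and between 0.45 and 1.02. In embryo 1 only line 1.5 of group II was raised (0.64), and line 1.2 (-0.14) was among the group I lines (-0.57 to 0.06). For glycolysis line 1.1 of group I and line 1.2 of group II were level (0.00 and 0.01). Line 1.1 was instead the lowest line for the primed and neural lists (-0.77 for each), and line 1.5 the lowest for the naive list (-0.85).

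Whether the group difference was of one size in the 3 embryos was read from the interaction of group and embryo. The lines had been sorted on these same libraries, which shaped the spread within a group and the likeness of the embryos, so these counts and p-values are a description too. By edgeR 0 of 15213 genes (0%) passed an adjusted p of 0.05, with 1543 at an unadjusted p under 0.05, and by DESeq2 241 passed. The count by edgeR was 108 without line 1.2, 41 without line 1.3 and 20 without line 3.4. Of 9 genes described here from the 10 with the smallest p, 7 had negative log2 fold changes in embryos 1 and 3 and values from 0.12 to 0.53 in embryo 2. Ednrb, an endothelin receptor, stood at 0.230, 0.647 and 0.315 CPM in lines 1.1, 1.3 and 1.4 against 5.36 and 2.77 CPM in lines 1.2 and 1.5, and at 0.151 to 0.552 CPM in lines 3.4 to 3.7 against 2.54, 4.50 and 6.60 CPM in lines 3.1 to 3.3. In embryo 2 it stood at 7.24, 2.93, 3.29 and 1.77 CPM in lines 2.3 to 2.6 against 4.65, 2.44 and 3.26 CPM in lines 2.1, 2.2 and 2.7. Its adjusted p from edgeR was 0.0726. Dtx4, a ubiquitin ligase of Notch signaling (log2 fold change -2.62, 0.27 and -2.28), Cp, which encodes the ferroxidase ceruloplasmin (-5.25, 0.25 and -4.58), Plat, Plxna2, Utrn and Ndnf were the other 6. Ier3 and Nlrp3 differed from them, with 0.76, -1.83 and -1.20 for Ier3, an immediate early gene, and 0.69, -2.06 and -1.72 for Nlrp3, an inflammasome sensor. The values of Cp rest on levels near the limit of detection. It stood at 0 to 0.151 CPM in the group I lines of embryos 1 and 3, and at most at 2.06 CPM in any line.

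**Figure D5:**
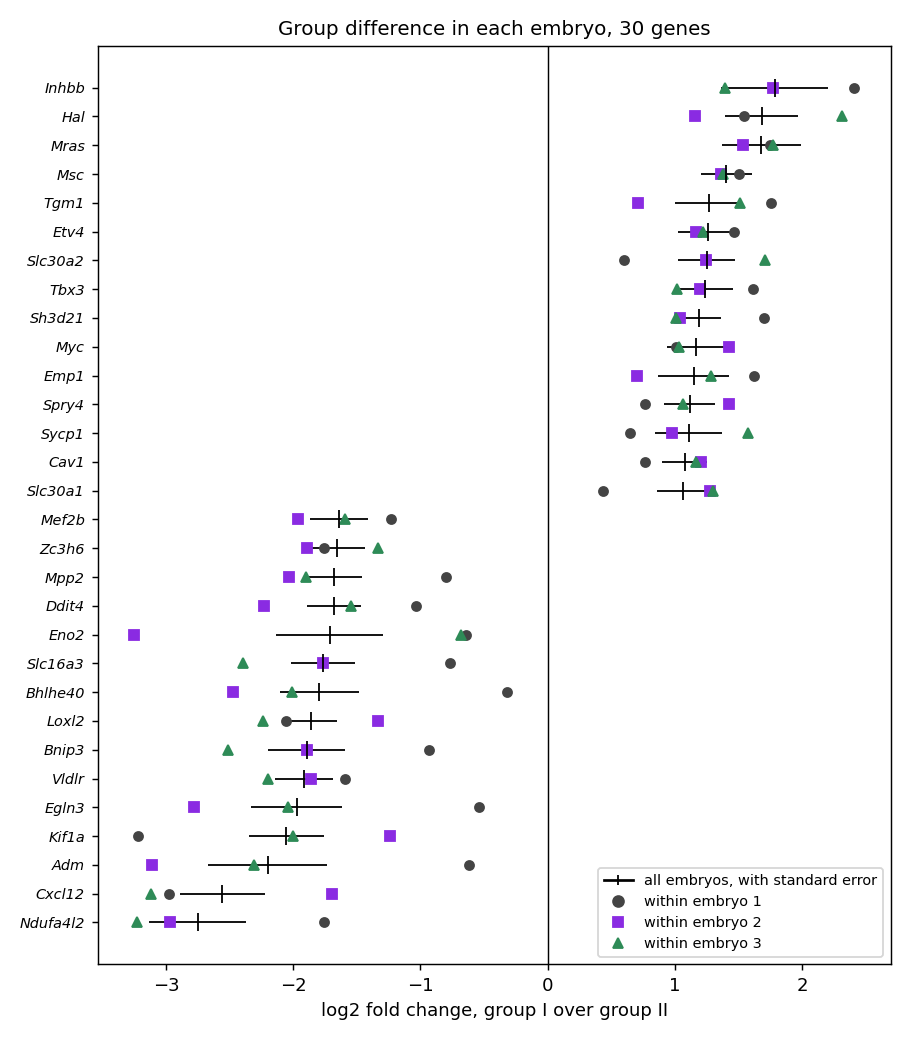
The 15 largest and 15 smallest log2 fold changes are shown for genes of 5 CPM or more whose sign held in every embryo. The black mark is the value over all embryos with its standard error, and the points are the values within each embryo. Among the lower genes Egln3, Bhlhe40 and Adm lie nearest to 0 in embryo 1 (-0.54, -0.32 and -0.62), while Kif1a lies farthest from it there (-3.22).

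The remaining genes with the largest differences belonged to varied processes. Higher in group I were Hal, which breaks down histidine (4.37 to 22.5 CPM, median 10.5, against 1.46 to 6.72 CPM, median 3.25), and Mras, a Ras family GTPase (9.98 to 30.3 CPM, median 15.4, against 1.10 to 10.5 CPM, median 5.66), and both were separated. Cav1, the main protein of caveolae, Msc, a basic helix-loop-helix repressor, Tgm1, a transglutaminase of epithelia, and Emp1, an epithelial membrane protein, had log2 fold changes of 1.08 (SE 0.18), 1.41 (SE 0.20), 1.27 (SE 0.27) and 1.15 (SE 0.28). The zinc exporters Slc30a1 and Slc30a2 were both among the 15 largest, at 1.06 (SE 0.20) and 1.25 (SE 0.23). Sycp1, a protein of the synaptonemal complex of meiosis, stood at 19.3 to 92.2 CPM in group I (median 27.1) and 10.1 to 33.5 CPM in group II (median 15.1). Lower in group I was the chemokine Cxcl12, at 0.778 to 6.89 CPM (median 3.83) against 7.28 to 70.0 CPM (median 14.4), a log2 fold change of -2.56 (SE 0.33) with no overlap among the 19 lines. Its receptors Cxcr4 and Ackr3 were not called (-0.17, SE 0.23 and 0.18, SE 0.13).

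Antigen presentation genes differed in a few members, and imprinted genes were called at about the background share. Of 19 genes of MHC class I and antigen presentation 4 were lower and 1 higher in group I (2 and 1 without line 1.5, 3 and 0 without the 5 lines with a shifted chromosome). H2-K1, a classical class I gene, stood at 18.3 to 38.7 CPM in group I (median 25.6) with a median of 39.6 CPM in group II, and its log2 fold change of -0.62 (SE 0.11) was -0.54, under the fold threshold, without line 1.5. Tap2, of the peptide transporter, was separated at a log2 fold change of -1.16 (SE 0.20). H2-Q4 and H2-Q7 were lower as well and H2-T23 was higher, and since class I genes share much sequence, their counts could have been split among copies. Of 24 imprinted genes 21 had a negative log2 fold change. Sgce and Peg3 were called lower (-1.22, SE 0.28 and -0.60, SE 0.22) and Dcn, also a fibroblast marker here, higher. These 2 lower and 1 higher members are near the shares of 7.34% and 2.84% over all genes compared. Peg3 was not called without any one of 13 lines or without the 5 shifted lines. Igf2, Peg10 and Mest, at -0.78 (SE 0.49), -0.64 (SE 0.40) and -0.57 (SE 0.42), were not called. DNA methylation enzymes (0 of 9 called) and genes of 2-cell-like cells (0 of 17) included no called member. At the shares over all genes, lists so small would hold few. The 2-cell-like genes had medians of 1.41, -0.99 and 0.72 in embryos 1, 2 and 3.

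Fibroblast markers moved with the groups. Of 33 fibroblast genes 14 were higher in group I and 1, Acta2, was lower, with a median log2 fold change of 0.49 (0.41, 0.73 and 0.56 in embryos 1, 2 and 3), and 7 were higher and 0 lower without the 5 lines with a shifted chromosome. Their summed level was 2444 to 3470 CPM in group I (median 3132) and 2340 to 2919 CPM in group II (median 2511). Of the markers that define fibroblasts here, Col1a1 had a mean of 406 CPM in group I against 233 CPM in group II, Col1a2 139 and 84.3 CPM, Col3a1 31.1 and 18.6 CPM, Lum 2.13 and 1.10 CPM and Dcn 1.72 and 0.864 CPM, so none was at 0. From the midpoint of their embryo, the lines lowest in the list were 3.2 (-0.55) of group II and 3.4 (-0.41) of group I, so the order of the lines was not that of the groups throughout. In RNA from a whole culture, fewer cells of a type and less RNA per cell cannot be told apart, and reads of the human feeder cells cannot be told from mouse reads in a count table made on the mouse genome. The part of these markers in the group difference was not tested, and their score as a covariate left 0 genes called.

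Trophectoderm, primitive endoderm and basement membrane genes showed no common direction. Krt19 was the 1 trophectoderm gene of 18 called lower, at 4.94 to 41.7 CPM in group I (median 6.64) and 11.2 to 47.6 CPM in group II (median 26.7), and the summed level of the list was 155 to 584 CPM in group I and 246 to 588 CPM in group II. Gata6, Dab2 and Pdgfra were the 3 of 15 primitive endoderm genes called higher, at means over all lines of 2.12, 10.9 and 2.66 CPM. Each was lost without line 1.3, where 0 members were called. The defining endoderm factors Gata4 and Sox17 were not called (-0.57, SE 0.18 and 0.05, SE 0.25). Of 19 laminin and basement membrane genes 5 were higher and 2 lower, with 3 higher without any one of lines 2.1, 2.2, 2.3 and 2.5, and 3 higher and 1 lower without the 5 lines with a shifted chromosome. In the trophectoderm and primitive endoderm lists 0 were called without those lines. Lama1, the laminin chain of the early embryo, stood at 26.9 to 75.2 CPM in group I (median 42.7) and 15.3 to 32.1 CPM in group II (median 26.8), while Col4a5 and Col4a6, neighbours on the X chromosome, were lower (-1.18, SE 0.29 and -1.57, SE 0.44).

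Called genes lay on every autosome and the X chromosome, and chromosomes 8 and 6 held more of the lower ones. On chromosome 8, raised in lines 2.2 and 3.1 of group II, 102 of 794 genes (12.8%) were lower in group I and 8 higher, against 7.04% lower and 2.94% higher among the 14419 genes elsewhere. On chromosome 6, lowered in line 3.7 of group I, 79 of 716 genes were lower. Of the genes described above as called lower, Egln1, Gpt2, Msmo1, Herpud1, Gdf15, Nkd1 and Plat are on chromosome 8, and Cxcl12, Eno2, Tpi1, Mthfd2, Bhlhe40, Sgce and Ndnf on chromosome 6. Loxl2, Zic2, Otx2 and Ednrb are on chromosome 14, lowered in line 3.6 of group I. Pfkp, Sncb and Nkd2 are on chromosome 13, raised in line 3.2 of group II. Among these genes of chromosomes 13 and 14, only Nkd2 lost its call without the 5 shifted lines. Over the X chromosome and the autosomes other than 6 and 8 the share of lower genes was 5.12% to 9.46%.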

How the data were processed

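RNA was measured in 19 mESCs lines with a stranded poly-A kit. The authors aligned the reads to GRCm39 with STAR and estimated gene counts with RSEM 1.3.0. The deposited values are expected counts per gene, already rounded to whole numbers by the authors, in 1 table of 55416 gene models of all types, whose gene type column was used to keep the protein coding ones. Expected counts share reads among similar genes, so members of near-identical families are uncertain.

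Counts were fitted with edgeR 4.0.16 (R 4.3.3, quasi-likelihood, TMM, filterByExpr) over all gene types, with embryo and group as terms, and p-values were adjusted by the Benjamini-Hochberg method over the 19265 genes that passed the filter. DESeq2 1.42.0 was an alternative. Log2 CPM used a prior count of 2. The fit was tested on simulated data over 19265 genes, where it called 98 of 100 genes changed 2-fold, 100 of 100 changed 3-fold and 5 of 19065 others. The simulation held neither groups sorted on the same libraries nor shifted chromosomes, and its changed genes left out those of lowest level. Its counts show that the code ran as meant and give no error rate for this comparison. No 2 libraries held identical counts.

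The groups are those of the study, which drew them from these libraries, and the GEO labels give only embryo and line. The members and the gene lists were chosen with earlier results of these data known. Genes were named by rule: the 15 largest differences in each direction among called genes of at least 5 CPM with the same sign in all embryos, up to 4 called members of at least 1 CPM per list, every core, naive and primed gene, and the 10 genes of smallest interaction p. Other genes named, such as Pgk1, Ldha or Col1a1, were picked with their values in view. The lists left out members with too few counts, among them Spz1, Afp, Ttr and Rtl1. Some genes that the rule takes are not reported here. Gene positions and promoters came from the GRCm39 sequence with GENCODE vM39, which held 54749 of the gene IDs, while the file's IDs are of an older release. The alternatives were another tool, scaling and filter, the fit to protein coding genes alone, other fold thresholds, leaving out lines, a block of line numbers, no embryo term and a fibroblast covariate.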

Additional observations from a re-analysis of the deposited data

Results flagged for a closer look

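Some of the 114 levels checked for a line far from its group were set apart in group II by the gap of 1 line to the nearest other line, as a share of the whole range of the group in log2 CPM. Chance sets apart about 1 in 20 such groups when they are independent. The genes here share the same lines and many were picked by their group difference, so that rate does not apply. Here 13 levels were set apart. In 11 of them the line was 1.5 of embryo 1. Its level was apart by 0.535 of the range for Msc, 0.614 for Tgm1, 0.663 for Emp1, 0.626 for Pou5f1, 0.623 for Klf4, 0.627 for Klf2, 0.599 for Klf5, 0.590 for Nodal and 0.563 for Bmp4, all of them at the low end. It was apart at the high end by 0.558 of the range for Fgf5 and 0.569 for H2-K1. The library name of line 1.5 stood outside the run of the others, and its part in these values was not tested. Line 2.7 was apart for Sycp1 (0.559 of the range) and line 1.2 for Zfp42 (0.624 of the range), both at the high end. The embryos were pooled in this check, and at 557 and 33.5 CPM these levels of Zfp42 and Sycp1 lay within the range of the group I sister lines of the same embryo (509 to 613 CPM and 26.7 to 56.3 CPM).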

How the results depend on the processing

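The count of genes called higher and lower was 88 and 512 without lines 2.2, 3.1, 3.2, 3.6 and 3.7, 286 and 693 with no embryo term, 0 and 0 with the fibroblast covariate, 1707 and 2552 with no fold threshold and 164 and 389 at a fold change over 2. The share of higher genes among those called was 27.9% in the main fit, 14.7% without those lines and 40.1% with no fold threshold. Leaving out 1 line gave 313 to 505 higher and 841 to 1237 lower genes, the fewest without line 1.5 and the most without line 2.7, and without line 2.2, which the study placed by its gene network, 352 and 1133. Without lines 1.5 and 2.4, whose library names stood outside the run, 326 were higher and 857 lower. Of the 1549 genes called in the main fit, 1106 were called then too, and all 1549 kept their sign. The interaction count was 0 by edgeR, 241 by DESeq2, 164 with no filter beyond 1 count, 8 with protein coding genes alone and 0 to 108 when 1 line was left out. Nlrp3 turned from lower to higher (log2 fold change 0.37) with no embryo term. The cause of these differences was not tested. The line numbers come from the labels and pair nothing across embryos, and a line correlated best with its own number in 3 of 34 comparisons (correlations from -0.51 to 0.47 over 2000 genes). When line numbers were added as a replicate block, 264 genes were higher and 969 lower. For the HIF-1 list the median was -0.57 with the fibroblast covariate. With 2 to 4 lines per group in an embryo, the data cannot show small differences between embryos.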

Other observations

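The zinc genes were looked up after the exporters Slc30a1 and Slc30a2 were seen among the largest differences. The metallothioneins Mt1 and Mt2, which bind zinc and are induced by it, had log2 fold changes of 0.12 (SE 0.15) and 0.36 (SE 0.17), and were not called. Slc39a10, a zinc importer, was separated in each embryo but under the fold threshold, at 120 ± 14.2 CPM in group I (SD, n = 11) against 145 ± 8.48 CPM in group II (SD, n = 8). Slc30a4 and Slc30a5, exporters to intracellular vesicles, had log2 fold changes of -0.40 (SE 0.12) and -0.01 (SE 0.08).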
